A study of Mus musculus with 6 samples.

Results

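The autophagy machinery examined here is a list of 40 mouse genes whose products start, build and close the autophagosome or tie cargo to it. It was measured in mouse cumulus-oocyte complexes (COCs), each an immature oocyte with its coat of somatic cumulus cells. A gene was measured where an array probe set named it and no other gene, which gave 38 of the 40 members among 22180 genes in all. No probe set named Optn, an autophagy receptor gene, so it was not analysed here. Bnip3l, a mitophagy receptor gene, was named only together with its pseudogene Bnip3l-ps, and its value is given apart from the counts.

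Macroautophagy encloses portions of cytoplasm in a double membrane and delivers them to the lysosome. The ULK kinase complex starts it, the PIK3C3 lipid kinase complex marks the membrane with phosphatidylinositol 3-phosphate, and WIPI proteins read that mark. A pair of ubiquitin-like conjugation systems then couples ATG8 proteins (the LC3 and GABARAP families) to the growing membrane, where receptors such as SQSTM1 bind them with their cargo. The kinase MTOR, in MTORC1, restrains the ULK complex and the transcription factor TFEB by phosphorylation, and the ATP-competitive MTOR inhibitor Torin1 is widely used to induce autophagy.

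The 2 groups were 3 samples of COCs cultured with 5 µM Torin1 and 3 samples cultured with the vehicle DMSO, whose labels also carry a concentration of 5 µM. All complexes came from wildtype female mice primed with 5 IU of equine chorionic gonadotropin for 46 h, and each group of 100 complexes was kept in medium with 3 mg/ml of serum albumin. The medium also held 5 µM milrinone, which blocks the phosphodiesterase PDE3 and so keeps oocytes from resuming meiosis. The labels give the mice as 21 or 23 days old and the culture as 14 or 16 h, and neither pair of values could be settled. The strain is not given in the sources used here. The labels speak of separate sets without saying whether mice or culture days differed, and the p-values below therefore reflect sample-to-sample spread that may be purely technical. Arrays report transcripts, and neither autophagic flux nor the phosphorylation of any of these proteins was measured.

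Array medians ran from 11.1 to 11.97 intensity units. Torin1 sample 3 stood apart: log2 values differed between it and Torin1 samples 1 and 2 with an SD of 0.327 and 0.350 over all genes, against 0.204 between Torin1 samples 1 and 2 and 0.212 to 0.240 among DMSO samples. All 9 fixed markers of cumulus or granulosa cells were measured and fell, and their summed intensity was 3067 to 3536 with Torin1 and 5685 to 5943 with DMSO. The 11 oocyte markers summed to 5524 to 6017 with Torin1 and 4947 to 5299 with DMSO, with 2 called higher (Dppa3 and Figla). In a mixed sample, fewer cells of a type and less marker RNA per cell cannot be told apart. All 20 markers of both kinds were above the array median in at least 1 sample. Of the 5 leukocyte markers, Ptprc, Adgre1, Csf1r and Lyz2 were below the array median in every sample; the sum was 61.7 to 66.5 with Torin1 and 51.1 to 56.4 with DMSO, and Cd68 was called higher. The 4 endothelial markers summed to 135 to 254 with Torin1 and 87.0 to 93.8 with DMSO (Cdh5 called higher, Tek below the array median throughout). The 3 smooth muscle markers summed to 127 to 128 with Torin1 and 366 to 454 with DMSO (Acta2 called lower, Des below the median), and 2 measured theca markers to 58.1 to 82.6 with Torin1 and 158 to 221 with DMSO (Ptch1 called lower, Cyp17a1 below the median). The part of these marker shifts in the changes below was not tested.

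Rb1cc1, Vmp1, Atg3, Sqstm1 and Tax1bp1 rose with Torin1, by 1.29-fold (Sqstm1) to 3.45-fold (Vmp1), and Wipi1 and Gabarapl2 fell, to 0.608 and 0.802 times the DMSO level. The Vmp1 value is from a probe set numbered among genes of the opposite strand, and whether it reads Vmp1 was not tested. Another probe set, which names Vmp1 together with Mir21a, rose 1.80-fold. There were 5 rises and 2 falls among the 38 members, and 31 members were not called, at a Benjamini-Hochberg adjusted p below 0.05 over all genes in limma. Calls made up 18.4% of the members and 12.1% of all genes. For rises alone 5.13% of all genes were called, and for falls 6.94%. The median log2 change (Torin1 minus DMSO, on log2(intensity + 1)) was 0.058 over the members and 0.0098 over all genes. The member median was -0.0098 without Torin1 sample 2 and -0.0013 without DMSO sample 2, against 0.020 over all genes in both runs. In the other leave-outs it ran from 0.044 to 0.11. Of the members, 24 of 38 (63.2%) changed by less than 0.25 in either direction, against 73.2% of all genes. Every Torin1 value lay above or below every DMSO value in 10 members (26.3%), against 28.6% of all genes. Without Torin1 sample 3, 8 members were called, and without Torin1 sample 2, DMSO sample 2 or DMSO sample 3 only Vmp1 and Wipi1 were. Without Torin1 sample 1, Tax1bp1, Vmp1 and Wipi1 were called. The member share of calls was below that of all genes in some runs. With dim genes left out (those not above the array median in at least 3 arrays), 8 of 37 members and 2807 of 11305 genes were called. With the replicate number as a block these were 2 of 38 and 1565 of 22180, and without DMSO sample 3 they were 2 and 1518. In others it stayed above, as without Torin1 sample 3 (8 and 3083) or DMSO sample 1 (6 and 1730).

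**Figure D1:**
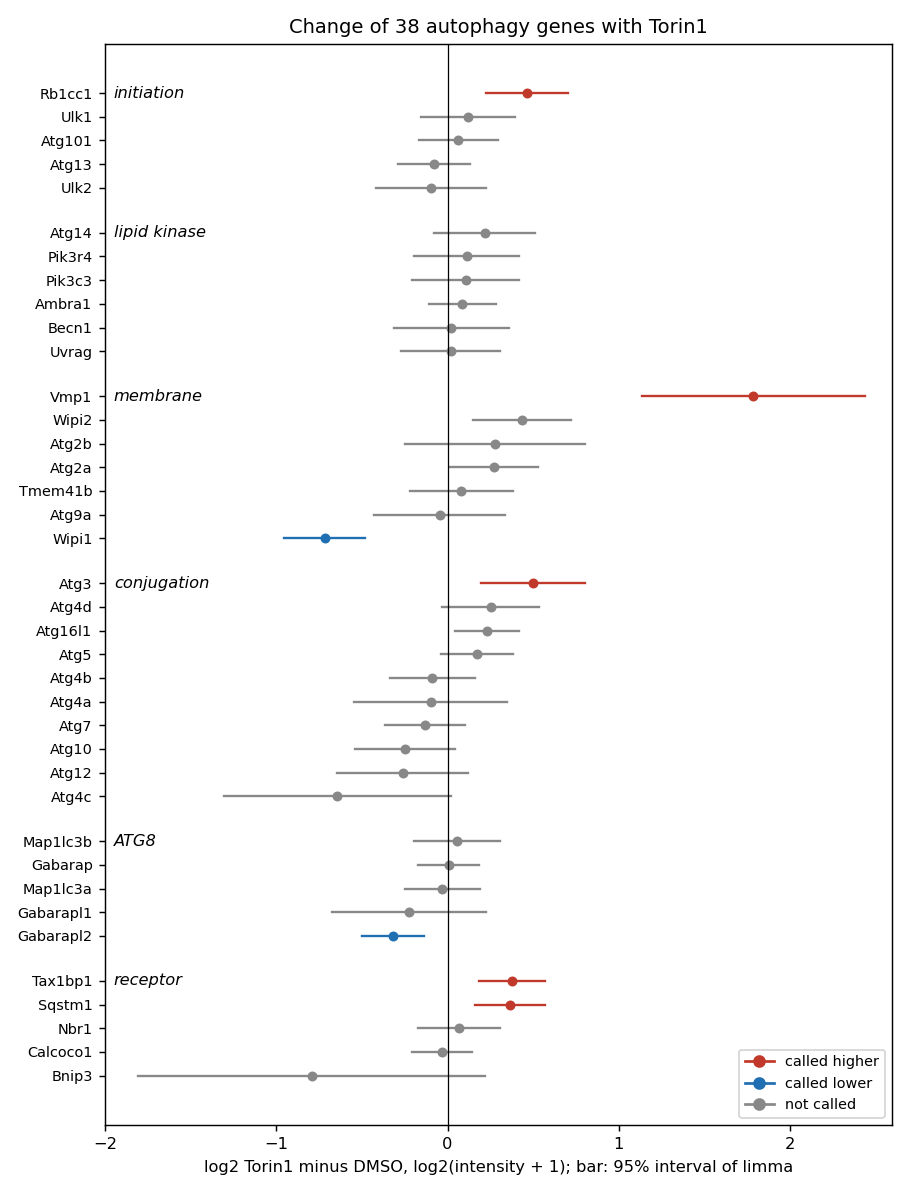
Log2 change of the 38 measured members (Torin1 minus DMSO on log2(intensity + 1), horizontal axis), grouped by role, with 95% intervals from limma; red is called higher, blue called lower and grey not called (n = 3 arrays a group). Of the points 63.2% lie within 0.25 of 0, against 73.2% of all genes. The point farthest from 0 is Vmp1 at 1.79, read from a probe set numbered among genes of the opposite strand.

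Sequences are shown for the promoters that carry the letters bound by TFEB, since MTORC1 controls that factor, and for Wipi1, the called member with the largest fall. The windows are RefSeq promoters of build GRCm38.p6, from 250 bases before to 50 bases after a gene's start. The motif CACGTG, the E-box core that TFEB and other helix-loop-helix factors bind, reads the same on both strands and is set in capitals. It occurred in 5 of the 33 members with a window (15.2%), namely Atg3, Atg5, Atg7, Atg14 and Bnip3, against 8.09% of all 27025 genes with windows and 7.15% of all 32851 windows. Atg3 holds it at 94 and again at 71 bases before the start, Atg5 at 14, Atg7 at 132, Bnip3 at 108 and Atg14 at 1 base before it. Wipi1 holds none of the searched letters in this window.
Atg3, chr16:45158579-45158878, plus strand: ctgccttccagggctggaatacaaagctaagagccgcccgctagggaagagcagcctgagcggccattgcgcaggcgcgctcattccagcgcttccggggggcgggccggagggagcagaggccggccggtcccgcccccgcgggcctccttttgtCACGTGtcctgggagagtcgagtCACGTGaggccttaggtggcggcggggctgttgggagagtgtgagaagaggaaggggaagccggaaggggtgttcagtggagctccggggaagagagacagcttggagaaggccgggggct
Atg5, chr10:44268089-44268388, plus strand: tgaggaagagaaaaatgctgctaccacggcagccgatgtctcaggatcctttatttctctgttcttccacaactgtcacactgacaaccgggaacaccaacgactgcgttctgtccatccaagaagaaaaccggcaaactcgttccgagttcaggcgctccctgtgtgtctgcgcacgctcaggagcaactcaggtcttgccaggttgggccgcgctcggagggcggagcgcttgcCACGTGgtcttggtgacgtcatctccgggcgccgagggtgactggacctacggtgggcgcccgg
Atg7, chr6:114670846-114671145, plus strand: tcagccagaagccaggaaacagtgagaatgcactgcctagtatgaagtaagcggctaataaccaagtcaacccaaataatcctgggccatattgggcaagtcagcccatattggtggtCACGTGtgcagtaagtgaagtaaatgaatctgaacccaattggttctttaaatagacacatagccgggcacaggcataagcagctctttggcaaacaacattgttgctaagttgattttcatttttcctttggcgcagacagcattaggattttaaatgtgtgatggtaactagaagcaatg
Bnip3, chr7:138909457-138909756, minus strand: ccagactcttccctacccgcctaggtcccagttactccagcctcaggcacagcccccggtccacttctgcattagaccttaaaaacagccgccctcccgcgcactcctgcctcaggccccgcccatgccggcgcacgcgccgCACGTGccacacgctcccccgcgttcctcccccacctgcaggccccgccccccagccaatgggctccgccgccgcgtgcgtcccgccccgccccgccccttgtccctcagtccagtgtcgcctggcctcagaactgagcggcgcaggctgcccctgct
Atg14, chr14:47568385-47568684, minus strand: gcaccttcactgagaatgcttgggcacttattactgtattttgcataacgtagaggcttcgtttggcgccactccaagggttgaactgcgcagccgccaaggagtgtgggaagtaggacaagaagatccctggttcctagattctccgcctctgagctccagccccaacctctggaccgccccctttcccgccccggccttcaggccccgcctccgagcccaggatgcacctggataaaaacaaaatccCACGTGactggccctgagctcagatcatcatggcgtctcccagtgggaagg
Wipi1, chr11:109611340-109611639, minus strand: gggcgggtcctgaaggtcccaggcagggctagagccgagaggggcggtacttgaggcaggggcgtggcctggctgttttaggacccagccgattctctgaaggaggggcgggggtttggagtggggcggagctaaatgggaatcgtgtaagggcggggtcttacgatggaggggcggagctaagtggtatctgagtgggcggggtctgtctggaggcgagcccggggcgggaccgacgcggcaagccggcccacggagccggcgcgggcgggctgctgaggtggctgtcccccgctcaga
Of the 5 genes with CACGTG, Atg3 rose and Atg5, Atg7, Atg14 and Bnip3 were not called. Searched on both strands, TGACTCA (bound by AP-1) and TGTTTAC (bound by FOXO factors) occurred in 0 of 33 members, against 5.95% and 4.05% of all genes. TGACNNNGC, the core of the antioxidant response element bound by NRF2, occurred in 5 (15.2%), namely Ulk2, Atg13, Vmp1, Map1lc3b and Tax1bp1, against 14.0% of all genes. These searched letters overlap where TGACTCA is followed by GC. A match is a description of the letters and not a binding site.

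Rb1cc1 alone was called, as a rise, among the 5 initiation genes, whose median log2 change was 0.062. Rb1cc1 encodes FIP200, the scaffold of the ULK complex. Its log2 values were 7.16, 7.15 and 7.08 in Torin1 samples 1, 2 and 3, against 6.85, 6.50 and 6.66 in DMSO samples 1, 2 and 3. The groups did not overlap, and the Torin1 samples lay close together. The change was 0.46 ± 0.10 (SE), or 1.38-fold, with an adjusted p of 0.0268 in limma. It was called without Torin1 sample 3 or DMSO sample 1 and not without any other single array (adjusted p up to 0.0955).

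The kinase genes themselves were not called. Ulk1 changed by 0.12 (95% interval -0.16 to 0.40) and Ulk2 by -0.095 (-0.42 to 0.23). Atg13, the regulatory subunit that MTORC1 phosphorylates, changed by -0.078 (-0.29 to 0.13), and its partner Atg101 by 0.062 (-0.17 to 0.29). In each of these 4 genes the groups overlapped.

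The 6 lipid kinase genes showed the narrowest range, with changes from 0.018 to 0.22 and 0 called in either direction in limma (0 at an unadjusted p below 0.05). All 6 changes were above 0, with a median of 0.096, and no group separated from the other. Over all genes 52.8% of changes were above 0. The class median was 0.011 without Torin1 sample 2 and 0.017 without DMSO sample 2, against 0.020 over all genes in both runs. Pik3c3 encodes the catalytic subunit VPS34 and Pik3r4 its partner VPS15, and they changed by 0.11 (-0.21 to 0.42) and 0.11 (-0.19 to 0.42). Becn1, for the core subunit Beclin 1, averaged 5.61 ± 0.19 with Torin1 and 5.59 ± 0.22 with DMSO (SD, n = 3 each). Atg14 and Uvrag, whose products define alternative forms of the complex, changed by 0.22 (-0.079 to 0.51) and 0.018 (-0.27 to 0.31). Ambra1, a regulator that binds Beclin 1, changed by 0.086 (-0.11 to 0.28). These intervals leave room for changes of up to 0.51 on the log2 scale.

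The 7 genes of the phosphoinositide readers, lipid carriers and scramblases held the largest called change in each direction. Vmp1 rose, Wipi1 fell, and the other 5 were not called (median change 0.27). Wipi1 encodes a reader of phosphatidylinositol 3-phosphate. It stood at 6.16, 6.43 and 6.15 in the Torin1 samples, against 7.05, 6.92 and 6.92 in the DMSO samples. The groups lay well apart, and every Torin1 value was lower. Wipi1 fell by 0.72 ± 0.10 (SE) on the log2 scale, to 0.608 times the DMSO level (adjusted p = 0.00490 in limma). It was called with any 1 array left out (adjusted p up to 0.0238). In a limma fit over all 41345 probe sets its adjusted p was 0.0134. In that fit no member's probe set was called lower without Torin1 sample 1, or without DMSO sample 1, 2 or 3.

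Its paralogue Wipi2, which recruits ATG16L1 to the membrane, differed in the other direction and was not called. Its values were 6.65, 6.65 and 6.85 with Torin1, against 6.52, 6.13 and 6.20 with DMSO. The groups did not overlap, with a change of 0.44 ± 0.12 (SE; adjusted p = 0.0646 in limma). It was called without DMSO sample 1, the highest DMSO value (adjusted p = 0.0285), and with dim genes left out (adjusted p = 0.0471), and in no other alternative run. The change of Wipi2 minus that of Wipi1 was 1.15 ± 0.16 (SE), and the within-array difference did not overlap between groups. An exact two-sided permutation test gave p = 0.1, the smallest that 3 against 3 allow, and 0.3 after adjustment over the 3 paralogue pairs compared. For Ulk1 minus Ulk2 the difference of changes was 0.21 ± 0.19 (exact p = 0.3, adjusted 0.45), and for Atg2a minus Atg2b it was -0.0024 ± 0.18 (exact p = 1, adjusted 1).

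**Figure D2:**
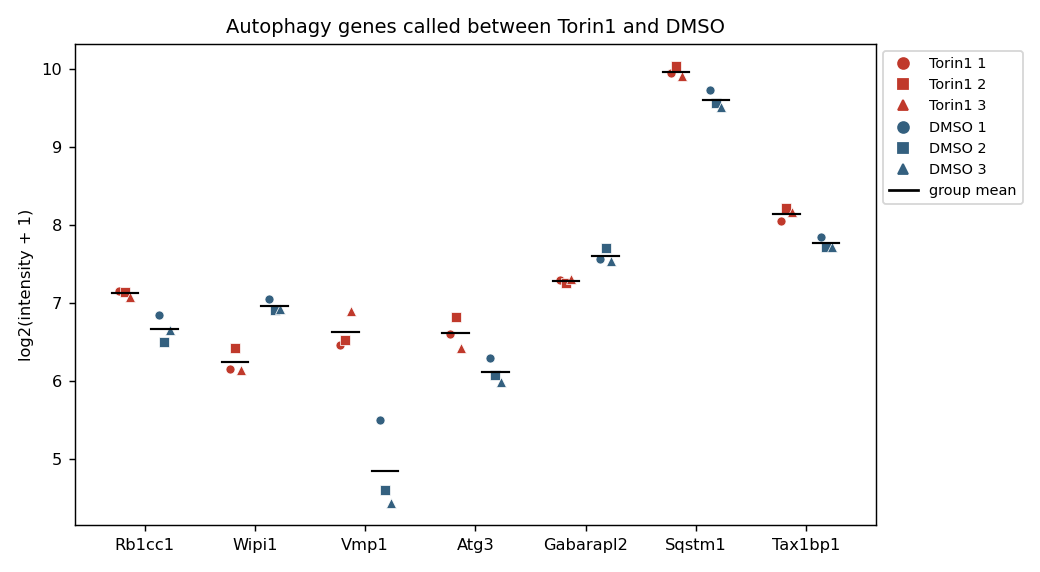
Log2(intensity + 1) of the 7 called members in each of the 3 Torin1 arrays (red) and 3 DMSO arrays (blue), with black bars for group means; levels are comparable within a gene and not between genes. The groups do not overlap in any of the 7, and the gap is widest for Vmp1, read from the probe set that names it alone.

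Atg2a and Atg2b encode lipid transfer proteins that feed the growing membrane, and both depended on Torin1 sample 3. Atg2b had 6.88, 7.001 and 6.12 with Torin1, against 6.41, 6.29 and 6.47 with DMSO. Torin1 samples 1 and 2 were above every DMSO sample and Torin1 sample 3 was below them all. Over all arrays it changed by 0.28 ± 0.22 (SE; adjusted p = 0.567), and without Torin1 sample 3 by 0.55 (adjusted p = 0.0101 in limma). Atg2a had 6.93, 6.92 and 6.61 with Torin1, against 6.55, 6.45 and 6.64 with DMSO. Its change was 0.27 ± 0.11 (SE; adjusted p = 0.180), and 0.38 without Torin1 sample 3 (adjusted p = 0.0349 in limma). Atg9a, the lipid scramblase on ATG9 vesicles, was also lowest of the Torin1 samples in sample 3, with 6.40, 6.52 and 5.91, against 6.26, 6.26 and 6.44 with DMSO, and was not called (adjusted p = 0.933). Torin1 sample 3 was the lowest Torin1 sample in 22 of 38 members (57.9%), against 34.7% of all genes. The scramblase gene Tmem41b changed by 0.081 (-0.22 to 0.38).

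Vmp1 encodes a scramblase of the endoplasmic reticulum that acts with ATG2, and 2 probe sets named it. The brighter one, which named Vmp1 alone, stood at 6.47, 6.54 and 6.90 in the Torin1 samples, against 5.50, 4.61 and 4.44 in the DMSO samples. It rose by 1.79 ± 0.28 (SE), or 3.45-fold (adjusted p = 0.00734 in limma), and was called with any 1 array left out (adjusted p up to 0.0337). The groups lay far apart, with DMSO sample 1 the highest of its group, and without that sample the rise was 2.11.

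The number of that probe set lay among those of genes on the other strand. Neighbouring numbers on this array mostly belong to genes of 1 strand. Of 17921 single-gene probe sets whose gene has a strand in RefSeq, 95.6% had most of their 40 nearest numbers on the same chromosome on their own gene's strand. Vmp1 lies on the minus strand of chromosome 11 (GRCm38.p6, 86583858 to 86683836), yet only 2 of the 40 nearest numbers to this probe set were of minus-strand genes. For the other 31 members with a known strand, 34 to 40 of the 40 neighbours were on the gene's own strand. Probe positions were not analysed here, so whether this probe set reads Vmp1 or a transcript opposite to it was not tested.

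The dimmer probe set had 37 of 40 neighbours on the minus strand and named Vmp1 together with Mir21a, the microRNA 21a gene. Its values were 5.88, 5.88 and 5.37 with Torin1, against 4.92, 4.64 and 5.01 with DMSO. The groups did not overlap here either, but the change was smaller, 0.85 ± 0.17 (SE), or 1.80-fold. In a limma fit over all 41345 probe sets, of which 5.80% were called, its adjusted p was 0.0425, and that of the brighter probe set was 0.0210. It was called only without Torin1 sample 3 among the leave-outs (adjusted p otherwise up to 0.131). The brighter one was called without Torin1 sample 3 or DMSO sample 1 in that fit (adjusted p otherwise up to 0.0827).

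The hairpin of Mir21a (86584067 to 86584158, minus strand) lies inside the span of Vmp1, near its 3′ end, so signal of the 2 transcripts cannot be separated in the dimmer probe set. The probe set names the gene Mir21a beside Vmp1 and neither mature arm, and whether it reads a mature arm was not tested. The mature 5p arm of this hairpin, at chr11:86584120-86584141 in RefSeq (GRCm38.p6), is shown with its seed (bases 2 to 8) in capitals.
mmu-miR-21a-5p: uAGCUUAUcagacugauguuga

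**Figure D3:**
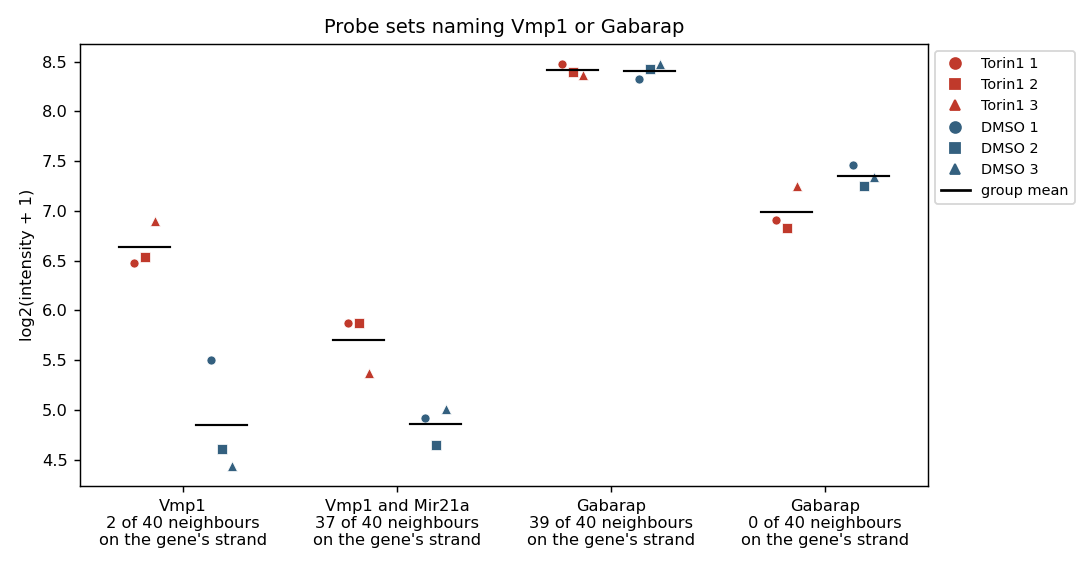
Log2(intensity + 1) by array for the probe sets naming Vmp1 or Gabarap (Torin1 red, DMSO blue, black bars for means), with the number of the 40 nearest-numbered genes that lie on the gene's own strand. Both Vmp1 probe sets are higher with Torin1, by 1.79 and 0.85, and the 2 Gabarap probe sets change by 0.0062 and -0.35.

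The 10 conjugation genes held 1 rise and 0 falls, and 9 were not called (median change -0.094). Atg3 encodes the E2-like enzyme that attaches ATG8 proteins to phosphatidylethanolamine. Its values were 6.61, 6.82 and 6.43 in the Torin1 samples, against 6.30, 6.08 and 5.99 in the DMSO samples. The groups were separate, by the smallest margin of the called members. The change was 0.50 ± 0.13 (SE), or 1.41-fold, with an adjusted p of 0.0496 in limma. Among the leave-outs it was called only without Torin1 sample 3 (adjusted p otherwise up to 0.164), and it was not called with a pseudocount of 16 (0.0734), with arrays centred on their medians (0.0554) or with a variance trend (0.0503).

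The partners of ATG3 were not called. Atg7, the E1-like enzyme of both systems, changed by -0.13 (-0.37 to 0.10), and Atg10, the E2-like enzyme for ATG12, by -0.25 (-0.54 to 0.047). Atg10 was dim, averaging 3.90 with Torin1 and 4.15 with DMSO, against a median level of 4.17 over all genes. Atg12 and Atg5, which form a covalent conjugate, changed by -0.26 (-0.64 to 0.12) and 0.17 (-0.036 to 0.38). Atg16l1, which places that conjugate on the membrane, had 6.58, 6.78 and 6.67 with Torin1, against 6.42, 6.45 and 6.47 with DMSO. Its groups did not overlap, at a change of 0.23 ± 0.078 (SE; adjusted p = 0.118 in limma).

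The ATG4 proteases trim ATG8 precursors and release ATG8 from membranes. Their 4 genes changed by -0.099 (Atg4a), -0.090 (Atg4b), -0.64 (Atg4c) and 0.25 (Atg4d), and none was called (adjusted p from 0.222 to 0.854 in limma; none at an unadjusted p below 0.05). Atg4c varied most, with 4.60, 4.90 and 3.72 with Torin1, against 4.88, 5.10 and 5.17 with DMSO. Torin1 sample 3 was again the lowest, and without it the change was -0.30 (adjusted p = 0.213). It was called only where Torin1 samples 2 and 3, which share a short name in their descriptions, were taken as 1 sample (adjusted p = 0.0278).

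The 5 ATG8 genes held 0 rises and 1 fall, and 4 were not called (median change -0.030). Gabarapl2, for the GABARAP-family protein also known as GATE-16, had 7.30, 7.26 and 7.31 in the Torin1 samples, against 7.57, 7.71 and 7.55 in the DMSO samples. The groups were separate and the Torin1 values nearly equal. It fell by 0.32 ± 0.076 (SE) on the log2 scale, to 0.802 times the DMSO level (adjusted p = 0.0380 in limma). No leave-out kept that call (adjusted p from 0.0532 to 0.108), nor did a variance trend (0.0521) or taking Torin1 samples 2 and 3 as 1 sample (0.0606).

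Map1lc3b, which encodes the LC3 protein followed in most autophagy assays, had 8.21, 8.42 and 8.14 with Torin1, against 8.31, 8.06 and 8.24 with DMSO. Its groups overlapped, at a change of 0.055 (-0.19 to 0.30; adjusted p = 0.855 in limma). Map1lc3a was dim, near the median level of 4.17 over all genes, and had 3.998, 4.09 and 4.28 with Torin1, against 4.20, 4.11 and 4.15 with DMSO. Gabarapl1 had 7.82, 7.94 and 8.28 with Torin1, against 8.61, 7.97 and 8.13 with DMSO, and its change was -0.22 (-0.67 to 0.23). Neither of these genes was called (adjusted p = 0.921 and 0.597).

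Gabarap had the smallest change of all 38 members. It stood at 8.47, 8.39 and 8.37 with Torin1, against 8.32, 8.42 and 8.47 with DMSO, a change of 0.0062 (-0.17 to 0.19; adjusted p = 0.981). A second probe set naming it had 6.90, 6.83 and 7.25 with Torin1, against 7.46, 7.25 and 7.34 with DMSO. This one lay below DMSO by 0.35 ± 0.13 (SE) and was not called (adjusted p = 0.211 over all probe sets), except, among the leave-outs, without Torin1 sample 3 (adjusted p = 0.0370). Of its 40 nearest numbers 0 were of genes on the strand of Gabarap, against 39 for the first.

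**Figure D4:**
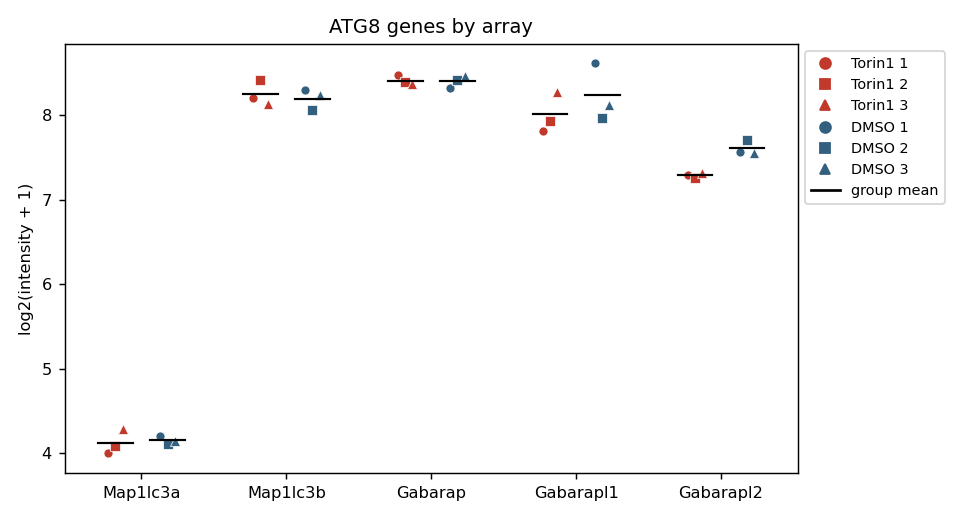
Log2(intensity + 1) of the 5 ATG8 genes in each Torin1 array (red) and DMSO array (blue), with black bars for group means (n = 3 arrays a group). The groups are separate in Gabarapl2, where the means are 7.29 and 7.61, and overlap in the other 4.

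The 5 measured receptor genes held 2 rises and 0 falls, and 3 were not called (median change 0.066). Sqstm1 encodes p62, a receptor for ubiquitinated cargo that is itself degraded by autophagy. It had 9.96, 10.05 and 9.91 in the Torin1 samples, against 9.73, 9.57 and 9.51 in the DMSO samples. The groups did not overlap, and the rise was 0.37 ± 0.087 (SE), or 1.29-fold (adjusted p = 0.0361 in limma). It was called without Torin1 sample 3 or DMSO sample 1 and not without any other array (adjusted p up to 0.130), nor with Torin1 samples 2 and 3 as 1 sample (0.0507).

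Tax1bp1 encodes another receptor for ubiquitinated cargo. It had 8.05, 8.22 and 8.17 with Torin1, against 7.85, 7.73 and 7.73 with DMSO. The groups were again separate, and the rise was 0.38 ± 0.081 (SE; adjusted p = 0.0259 in limma). It was called without Torin1 sample 1, Torin1 sample 3 or DMSO sample 1 and not in the other leave-outs (adjusted p up to 0.101). The related receptor genes Nbr1 and Calcoco1 were not called, at 0.066 (-0.17 to 0.30) and -0.032 (-0.21 to 0.14).

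The mitophagy receptor gene Bnip3 had the widest interval of the members. It had 7.17, 7.25 and 5.84 with Torin1, against 6.90, 7.79 and 7.95 with DMSO, a change of -0.79 (-1.81 to 0.22; adjusted p = 0.339 in limma). Torin1 sample 3 was the lowest of all 6, and without it the change was -0.33. The probe set naming Bnip3l with its pseudogene had 9.48, 9.47 and 9.08 with Torin1, against 9.36, 9.50 and 9.56 with DMSO. It was not called (-0.13 ± 0.13 (SE); adjusted p = 0.739 over all probe sets).

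**Figure D5:**
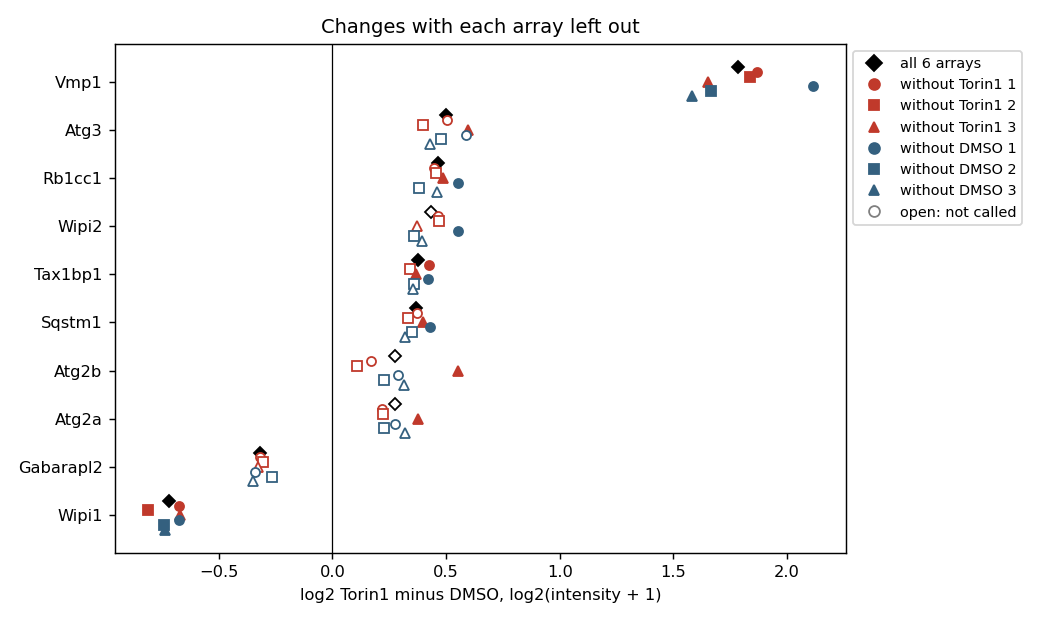
Log2 change (Torin1 minus DMSO) of 10 members with all 6 arrays (black) and with each Torin1 array (red) or DMSO array (blue) left out; filled symbols are called at an adjusted p below 0.05 and open ones are not. Vmp1, from the probe set that names it alone, and Wipi1 are filled throughout, while Atg2a and Atg2b are filled only without Torin1 sample 3.

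Of 43 other measured genes of the pathway, on 4 further lists, Pink1, Fkbp8 and Atl3 fell and 0 rose in limma. These calls made up 6.98% of the 43 genes, below the 12.1% of all genes, and the median change was 0.034. At an unadjusted p below 0.05 there were 14 (4 higher and 10 lower), against 5328 of all 22180 genes. The share of adjusted calls was above that of all genes with quantile normalization (9 of 43 against 2923 of 22180) or array weights (11 against 3359). It was also above with a pseudocount of 16 or with Torin1 samples 2 and 3 as 1 sample. With dim genes left out (5 of 41 against 2807 of 11305) or any 1 array left out it stayed below. Among 6 mitophagy genes Pink1, the kinase that marks damaged mitochondria, and Fkbp8, a mitophagy receptor of the outer membrane, fell. Pink1 had 5.92, 6.13 and 5.86 with Torin1, against 7.10, 6.74 and 6.51 with DMSO, and it fell by 0.81 ± 0.16 (SE; adjusted p = 0.0172). It was not called without Torin1 sample 1 or DMSO sample 2 (adjusted p up to 0.0608). Fkbp8 had 7.21, 7.25 and 7.27 with Torin1, against 7.78, 7.51 and 7.65 with DMSO, and it fell by 0.40 ± 0.088 (SE; adjusted p = 0.0280). Fkbp8 was called only without Torin1 sample 3 or DMSO sample 2 among the leave-outs (adjusted p otherwise up to 0.0971), and not with arrays centred on their medians (0.0563).

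Among 11 genes of reticulophagy and other cargo receptors, Atl3, for a reticulum protein that binds GABARAP, fell by 0.52 ± 0.089 (SE; adjusted p = 0.0110). It had 6.003, 5.84 and 5.81 with Torin1, against 6.45, 6.30 and 6.47 with DMSO, and was not called without DMSO sample 3 (adjusted p = 0.0522). None of the 15 genes of fusion with lysosomes was called in limma (4 at an unadjusted p below 0.05, of which 3 were lower). The higher one was Ykt6, at 0.40 ± 0.12 (SE; adjusted p = 0.0912), and its groups did not overlap. Ykt6 was called higher without Torin1 sample 3 and with quantile normalization or array weights. The HOPS tethering subunits Vps41, Vps33a and Vps39 were not called, at -0.79 ± 0.20, -0.82 ± 0.25 and -0.37 ± 0.11 (SE; adjusted p = 0.0511, 0.0819 and 0.0754), and the groups did not overlap in any of the 3. Vps41 was called without Torin1 sample 2 or Torin1 sample 3, and with all arrays under no pseudocount, dim genes left out, quantile normalization, a variance trend or array weights, and with Torin1 samples 2 and 3 as 1 sample. Vps33a was called with dim genes left out or those samples merged, and Vps39 with quantile normalization, array weights or those samples merged. The HOPS subunits Vps11, Vps16 and Vps18 were not called either, at 0.26, -0.20 and 0.034. None of the 11 other early factors was called (3 at an unadjusted p below 0.05, all higher), among them Wdr45 and Wdr45b, the remaining WIPI-family genes, at 0.15 (-0.063 to 0.36) and -0.24 (-0.51 to 0.034). The 3 higher ones were Bcl2l1, Atg16l2 and Sh3glb1, at 0.25, 0.37 and 0.17 (adjusted p = 0.0574, 0.0774 and 0.181 in limma). Bcl2l1 was called with a pseudocount of 16, arrays centred on their medians or array weights. Atg16l2 was called with quantile normalization or array weights, and Sh3glb1 with a pseudocount of 16.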

How the data were processed

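The deposited intensities are linear, with a value for every probe set on every array. The submitters' processing notes name RMA, GCOS and Affymetrix Expression Console 1.1; how these were set or ordered is not stated in the sources used here. RMA normally brings arrays to a common distribution, so changes are relative to other transcripts. Of 41345 probe sets 23521 named 1 gene, 1814 several and 16010 none, by the platform's gene table. For genes with several probe sets the one with the highest mean was kept, giving 22180 genes.

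Values were analysed as log2(intensity + 1), which understates changes of dim genes, with limma 3.58.1 (R 4.3.3): all genes entered a linear model with group as its only term, and two-sided moderated p-values were adjusted by Benjamini-Hochberg over all of them. The fit was tested on simulated data. The 95% intervals are limma's, and the number of arrays limits their precision. All members were named by role, with values in every array for those called, those in the ATG8 class and those called under an alternative, and other pathway genes were named where called. Array values of Bnip3, Atg9a and Atg16l1, and the HOPS and WIPI-family genes outside the members, were added after their values were seen. So were Ykt6, Bcl2l1, Atg16l2 and Sh3glb1. The members and lists were chosen with earlier results of these data known. Alternatives were the pseudocount, dim genes, scaling, the probe set per gene, array weights, a variance trend, a replicate block, Torin1 samples 2 and 3 as 1 sample, and leaving out each array.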

Additional observations from a re-analysis of the deposited data

How the results depend on the processing

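Of 16 alternatives per gene in the fit over all genes, Wipi1 was called in all, and so was Vmp1. The probe set naming Vmp1 and Mir21a (0.85, an alternative chosen after seeing the data) was called over all probe sets with all 6 arrays. In that fit it was called in 1 of 6 leave-outs (adjusted p up to 0.131 in limma) and not with the replicate block. The count of called members, 7, was 2 to 8 with 1 array left out, 2 with the replicate number as a replicate block (Vmp1 and Wipi1) and 6 without Vmp1. Over all genes, 2678 calls became 1565 with the replicate block and 1518 to 3083 with 1 array left out. The 3 calls among other pathway genes, all falls, became 7 with a pseudocount of 16 (2 of them rises) and 9 with quantile normalization (2 rises). They became 11 with array weights (3 rises), and with arrays centred on their medians they were 3 (1 rise). All were falls without dim genes (5), with Torin1 samples 2 and 3 as 1 sample (6) or with the variance trend (5). With 1 array left out there were 1 to 5, all falls but 1 rise without Torin1 sample 3. Of 42 probe sets naming members, 4 were called over all probe sets, in a fit where 5.80% of all 41345 were called. That count was 0 with the replicate block (10 at an unadjusted p below 0.05 in limma) and 0 to 6 with 1 array left out. The shares of all probe sets in those runs are not given here. The uncalled change of Gabarap turned to -0.039 with quantile normalization and to -0.10 as the mean of its probe sets, and the cause was not tested. With 1 array left out it ran from -0.035 to 0.039, that of Map1lc3a from -0.11 to 0.033 and that of Map1lc3b from -0.025 to 0.11. The median change of the initiation genes turned to -0.013 without DMSO sample 2, and that of the receptor genes to -0.0070 without Torin1 sample 2. The medians of the other classes kept their sign in every alternative. Deviations from the group mean correlated at -0.30 to -0.15 between same-numbered samples, and no array correlated best with its own number. The best matches were Torin1 1 with DMSO 2, Torin1 2 with DMSO 3 and Torin1 3 with DMSO 1. Centring on group means forces some of these correlations below 0, so they cannot settle whether samples were paired.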
